A study of Rattus norvegicus with 14 samples.

Results

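The transcripts described here are 9 immediate early genes, Fos, Fosb, Jun, Junb, Egr1, Atf3, Dusp1, Nr4a1 and Btg2, in glomeruli sieved from rat kidneys. They were chosen by Ensembl identifier from a fixed list, which also gives their names, since the deposited tables hold identifiers alone. Fos is ENSRNOG00000008015, Fosb ENSRNOG00000046667, Jun ENSRNOG00000026293, Junb ENSRNOG00000042838 and Egr1 ENSRNOG00000019422. Atf3 is ENSRNOG00000003745, Dusp1 ENSRNOG00000003977, Nr4a1 ENSRNOG00000007607 and Btg2 ENSRNOG00000003300. All 9 were among the 12934 genes of the raw count table, and all 9 were among the 11158 that passed the filter on low counts. Glomeruli, the capillary tufts that filter blood in the kidney, were isolated from renal cortex. All animals were male rats of the Dahl SS strain SS/JrHsdMcwiCrl, inbred and prone to hypertension when fed salt. Both groups were of this one strain. They ate chow with either 4% NaCl (high salt, 7 libraries) or 0.4% NaCl (normal salt, 7 libraries) for 21 days from 8 weeks of age. The RNA was read as 3' tags, counted once near the end of each transcript, with 13797146 to 18151197 counts per library. Each library carries a sample number between 9 and 24, odd on high salt and even on normal salt, and is named by it below. What the number records, and whether libraries are from separate rats, is not given in the labels, so a p-value here refers only to how these libraries vary, which may be partly technical. Purity of the glomeruli could not be checked against cell type markers, because no other identifier could be paired with a gene name.

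Immediate early genes are transcribed within minutes of a stimulus, before any new protein is made, and their short-lived mRNAs fall back soon after. Growth factors, vasoactive peptides, mechanical stretch, ischaemia and tissue handling are all known to induce them through MAP kinase, serum response factor and CREB signalling. Fos and Fosb encode subunits that pair with Jun or Junb to form the transcription factor AP-1, while Egr1 is a zinc finger factor and Atf3 a stress-induced member of the same leucine zipper class as Fos and Jun. Dusp1 is the phosphatase that switches MAP kinases off again, Nr4a1 is an orphan nuclear receptor, and Btg2 is an antiproliferative coregulator.

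Regulatory sequence is shown for Dusp1, Btg2 and Nr4a1, because these members varied together across the libraries (below). RefSeq promoter windows of the rat build GRCr8, each 300 bases long (250 before and 50 after the start of the gene), were matched by symbol for 6 of the 9 members. Fos, Jun and Atf3 had no window, so the counts below do not cover them. The stretches lie upstream of the start, run 5′ to 3′ on the strand of the gene, and have TGACG or its reverse complement CGTCA in capitals, the core of the CREB recognition sequence TGACGTCA. Dusp1 is from chr10:17184666-17184751 on the plus strand, Btg2 from chr13:48087869-48087906 on the minus strand and Nr4a1 from chr7:134259888-134260104 on the plus strand.
Dusp1: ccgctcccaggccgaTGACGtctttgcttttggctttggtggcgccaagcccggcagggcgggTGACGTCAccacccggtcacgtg
Btg2: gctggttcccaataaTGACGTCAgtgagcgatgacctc
Nr4a1: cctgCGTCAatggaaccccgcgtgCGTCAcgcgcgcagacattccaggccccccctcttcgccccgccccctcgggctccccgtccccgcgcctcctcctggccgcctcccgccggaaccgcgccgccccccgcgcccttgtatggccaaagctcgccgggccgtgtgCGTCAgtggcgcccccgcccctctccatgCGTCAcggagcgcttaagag
The full TGACGTCA, read on both strands, was in the windows of Dusp1 and Btg2, that is 2 of 6 members, against 1.83% of all 33469 promoter windows in the table. TGACG on either strand, which includes every TGACGTCA and counts it once per strand, was in 5 of 6 members (Junb, Egr1, Dusp1, Nr4a1 and Btg2) against 21.2% of all windows. Nr4a1 held 4 such sites, Dusp1 3, Btg2 2, Egr1 2 and Junb 1. The CArG box, the sequence bound by serum response factor, was found in 1 of 6 members, Egr1, with 2 sites, against 1.64% of all windows. The pattern TGANTCA, with any base at N, includes the AP-1 site but is wider than it. Searched on both strands, the pattern was in 0 of 6 members and in 7.33% of all windows. These are matches of letters within the windows, which describe the sequence and do not show binding.

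Levels are given as CPM, the count of a gene scaled to the total of its library after TMM adjustment. Because each transcript was read only near its 3' end, CPM was not divided by length. The 9 genes ranged in level from Dusp1 at 151 ± 59.1 CPM (SD, n = 14), above 94.8% of the genes in the table, to Fosb at 1.60 ± 2.15 CPM, above 22.5% of them. Below Dusp1 came Jun at 122 ± 39.0 CPM, Junb at 91.8 ± 25.7 CPM and Egr1 at 68.5 ± 28.9 CPM. Btg2 at 44.8 ± 17.0 CPM and Nr4a1 at 43.2 ± 48.3 CPM were followed by Atf3 at 15.4 ± 8.66 CPM and Fos at 6.67 ± 3.08 CPM. Both Fos family genes were thus the lowest of the set, and both Jun family genes were among the highest.

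Only the last steps of that order held in every library. Atf3 was above Fos, and Fos above Fosb, in 14 of 14 libraries. Dusp1 exceeded Jun in 10 of 14 libraries, and the within-library ratio of Dusp1 to Jun ran from 0.872 to 1.63. Their order thus changed between libraries, as it did for Junb over Egr1 (10 of 14) and Btg2 over Nr4a1 (10 of 14). Whether the levels of these neighbours differ was not tested. Jun exceeded Junb, Egr1 exceeded Btg2 and Nr4a1 exceeded Atf3 in 12 of 14 libraries each. Within a library the Fos count was small, 44 to 241, and the Fosb count smaller, 6 to 140, whereas Dusp1 was counted 1260 to 4282 times.

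**Figure D1:**
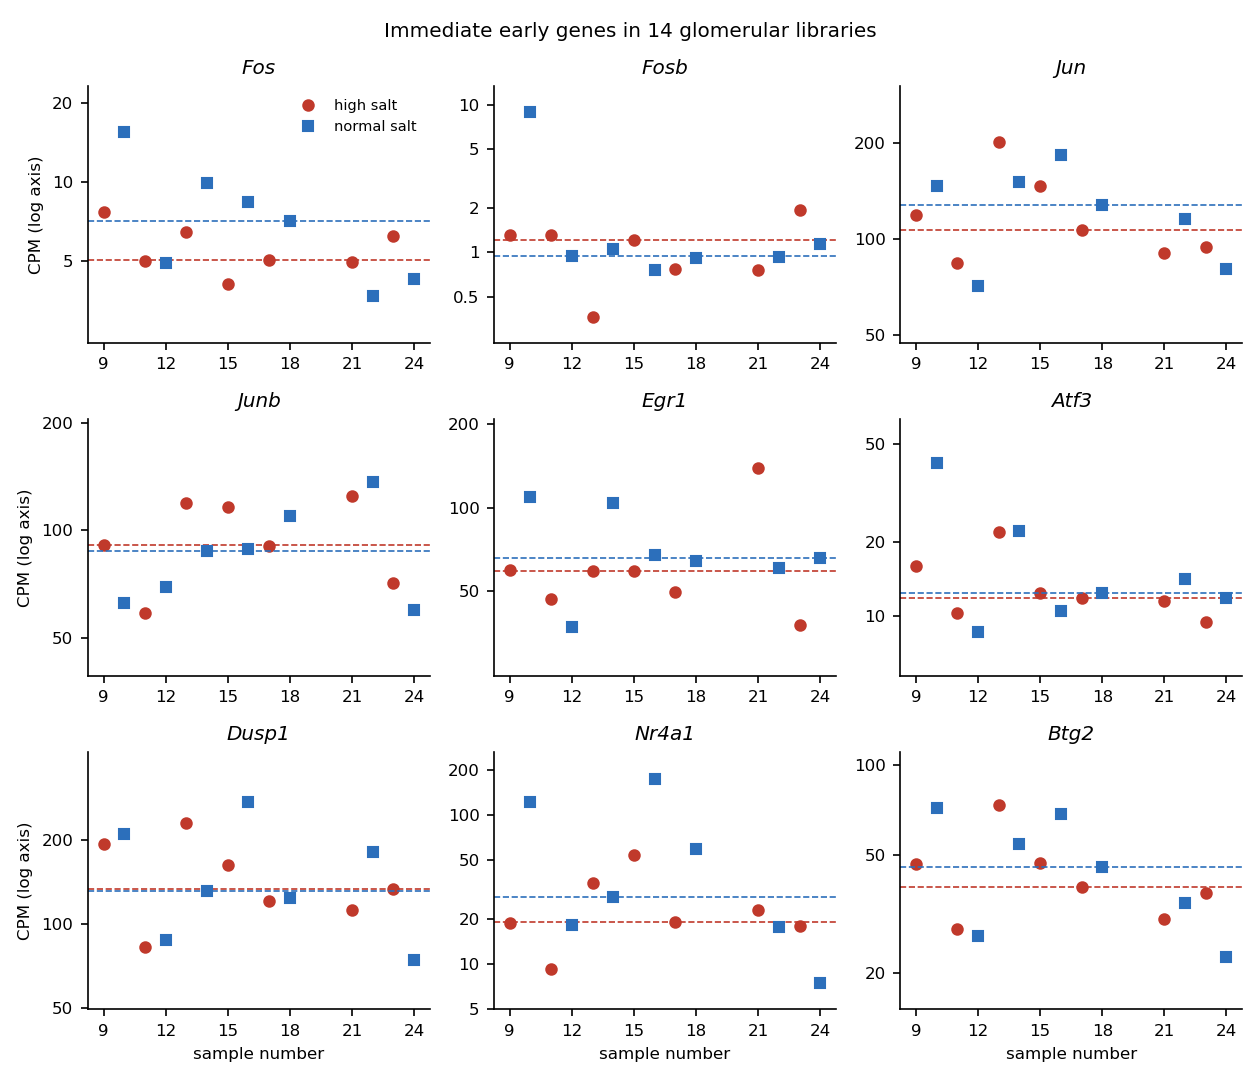
Level of each gene in CPM (log axis) against the sample number of the library, for 7 high salt libraries (circles) and 7 normal salt libraries (squares), with dashed lines at the median of each diet. The diets overlap in every panel, and normal salt library 10 stands highest for Fos, Fosb and Atf3 while library 16 stands highest for Dusp1 and Nr4a1.

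Every member varied more between libraries than most genes of like abundance. The SD of log2 CPM over the 14 libraries ranged from 0.41 for Junb to 1.29 for Nr4a1, and in 9 of 9 members it exceeded the median of the 500 tested genes nearest in abundance. Nr4a1 ranked 1 among those 501 genes, whose median SD was 0.26, and 40 among all 11158 tested genes. Dusp1 and Egr1 each ranked 18 of 501, Btg2 32, Atf3 42, Jun 50, Fosb 57, Junb 79 and Fos 111. Without library 10, Atf3 ranked 129 and Fos 213, and Nr4a1 ranked 3. These ranks describe the libraries and are no test. Counting error was smaller than the spread in every member and largest in the Fos family. The coefficient of variation of Nr4a1 CPM was 112%, where its mean count gives 3.90% by counting alone. For Dusp1 these values were 39.2% and 2.06%, for Egr1 42.2% and 3.02%, and for Fos 46.2% and 9.78%.

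Library 10 carried much of the spread of Fosb. Normal salt library 10 held 140 Fosb counts, or 8.95 CPM, while the other 13 libraries held 6 to 33. Without it the coefficient of variation of Fosb fell from 135% to 36.7%, where counting alone gives 24.9%, and its SD ranked 412 of 501 genes of like abundance. The coefficient of variation of Nr4a1 was 120% without library 10.

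**Figure D2:**
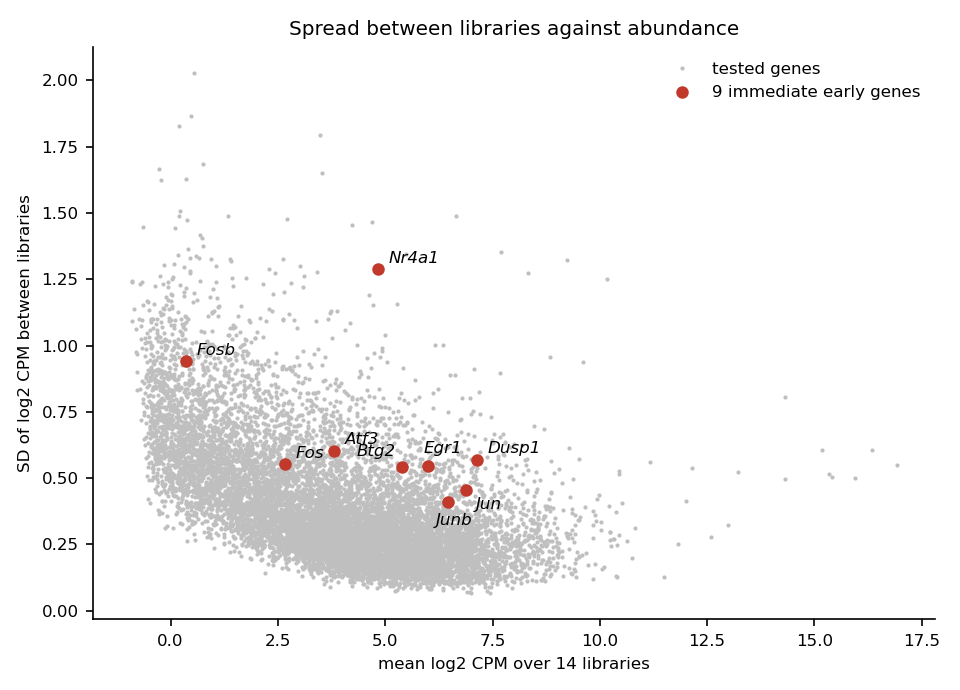
SD of log2 CPM between the 14 libraries (vertical) against mean log2 CPM (horizontal) for 11158 tested genes (grey) and the 9 immediate early genes (red). Nr4a1 lies far above genes of its abundance, at an SD of 1.29, and all 9 members lie above the median of their neighbours.

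High and low values of different members often fell in the same libraries. Normal salt library 10 was among the 3 highest libraries for 7 of 9 members and held the maximum of Fos, Fosb and Atf3. High salt library 13 and normal salt library 16 were each among the 3 highest for 5 members, and normal salt library 14 for 4. Library 13 held the maximum of Jun and Btg2. At the other end, high salt library 11 was among the 3 lowest for 7 members, normal salt library 24 for 6 and normal salt library 12 for 5. High and low libraries thus occurred on both diets. The share of all tested genes with the same libraries at their extremes was not determined, so these counts only describe the members. In total counts, libraries 10 (14396779), 13 (15339502) and 16 (17313896) lay inside the range of the others. The 10 most abundant genes of the table took 42.7%, 43.7% and 51.8% of their counts, against 30.8% to 64.9% over all libraries. The part of this in the members' values was not tested.

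Jun, Btg2, Dusp1 and Nr4a1 varied together across libraries. Their 6 pairwise correlations of log2 CPM lay between 0.74 and 0.94, with a median of 0.84, whereas the median over all 36 pairs of members was 0.44. These 4 genes were singled out after the correlations were seen, so their values, and the p-values with Jun below, are a description. All points share the library, its depth and its scaling. Of the 11157 other tested genes, Btg2 was the one most correlated with Jun, and Jun the one most correlated with Btg2 (r = 0.94). Dusp1 ranked 3 and Nr4a1 ranked 14 among the genes most like Jun.

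The closeness of Jun and Btg2 can be read from single libraries. Jun was lowest in normal salt library 12 at 70.8 CPM, where Btg2 was at 26.7 CPM, and highest in high salt library 13 at 201 CPM, where Btg2 was at 73.7 CPM. Normal salt library 16 came next for Jun, with 183 CPM of Jun and 68.6 CPM of Btg2. Over 14 libraries Pearson's r was 0.94 and Spearman's rho 0.96, each with a permutation p of 1e-05, the smallest that 100000 permutations can give. The adjusted p over 11157 genes was 0.0558 for both, not below 0.05. At the smallest p this value is set by how many genes share that p, so passing or not decides nothing. Without libraries 12 and 13, the 2 farthest from the median of Jun, r was 0.93 (permutation p = 4e-05, adjusted p = 0.318). After diet and sample number were regressed out, r was 0.95 (permutation p = 1e-05, again the smallest possible, adjusted p = 0.0372). Within the high salt libraries r was 0.97 (n = 7, exact permutation p = 0.000198, adjusted p = 0.738) and within the normal salt libraries 0.93 (n = 7, exact permutation p = 0.00337, adjusted p = 0.999).

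Dusp1, the MAP kinase phosphatase, followed Jun with r = 0.86 (rho = 0.84, permutation p = 0.00014 for r and 0.0003 for rho, adjusted p = 0.255 and 0.489), and with r = 0.82 without libraries 12 and 13. Nr4a1 followed Jun with r = 0.75 (rho = 0.79, permutation p = 0.00173 for r and 0.00102 for rho, adjusted p = 0.713 and 0.531), and with r = 0.87 without the same libraries. Within sample numbers 9 to 16 (8 libraries) the 6 correlations among these 4 genes lay between 0.69 and 0.95, and within numbers 17 to 24 (6 libraries) between 0.45 and 0.86. All 6 were positive within each diet as well, at 0.66 to 0.97 on high salt and 0.81 to 0.93 on normal salt. Leaving out library 10 together with library 16, the highest for Nr4a1, gave 0.57 to 0.95.

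**Figure D3:**
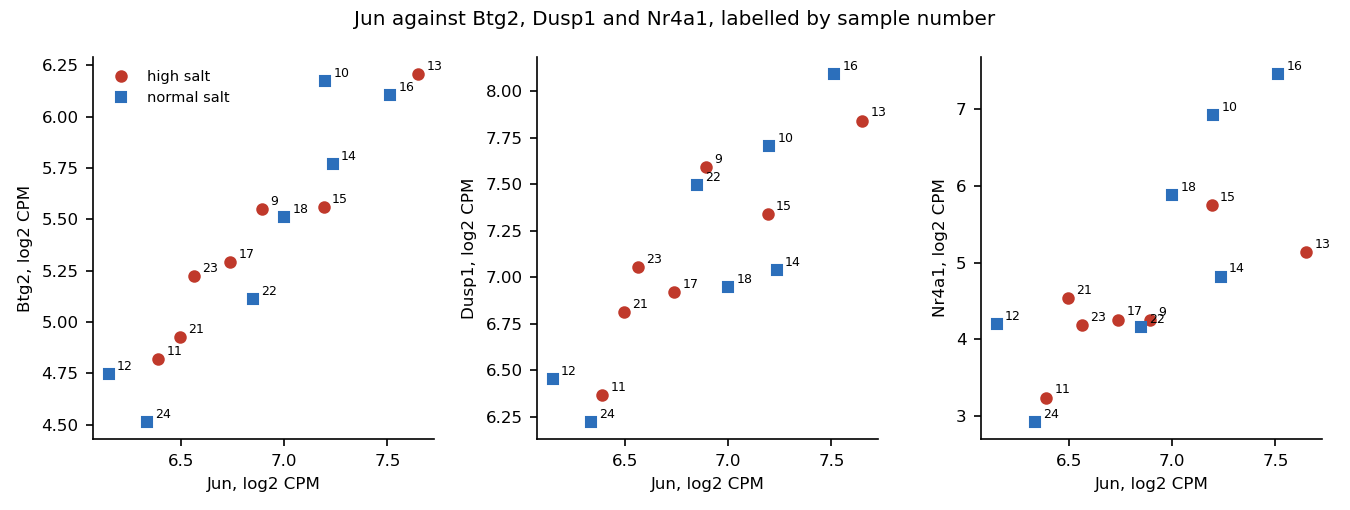
Log2 CPM of Btg2, Dusp1 and Nr4a1 (vertical) against that of Jun (horizontal) in 14 libraries, circles for high salt and squares for normal salt, each labelled by its sample number. Btg2 follows Jun most closely (r = 0.94), and both diets are spread along the same line.

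Fos, the prototype of the family, correlated with the other 8 members at a median of 0.54, as did Jun (median 0.54). Correlations of the members with Fos ran from -0.28 for Junb to 0.72 for Btg2, where the median over all 11157 genes was -0.01. By permutation, 0 of 8 members passed an adjusted p of 0.05, against 0% of all genes. With RLE factors 0 members and 74 of all genes passed. An unadjusted p below 0.05 was found for 4 of 8 members and for 24.9% of all genes. Btg2 was the member nearest to Fos (rho = 0.69, permutation p = 0.00293 for r and 0.00709 for rho, adjusted p = 0.0728 and 0.186). It was followed by Atf3 with r = 0.71 (rho = 0.42, permutation p = 0.0064 for r and 0.133 for rho, adjusted p = 0.0875 and 0.416). Without libraries 10 and 14, the 2 farthest from the median of Fos, r was 0.64 for Btg2 and 0.14 for Atf3. Fosb and Egr1, at 0.56 and 0.43 with Fos over all libraries, stood at -0.12 and -0.01 without the same 2. Leaving out the most extreme libraries narrows the range of Fos, which can lower r by itself. For Atf3, r was 0.41 without library 10 alone and 0.67 without library 14 alone. On high salt alone the correlations of the members with Fos ran from -0.26 to 0.50, and on normal salt alone from -0.31 to 0.87.

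Over all 14 libraries Junb and Fosb stood apart from the rest, with median correlations to the other members of 0.25 and 0.18. Junb, which forms AP-1 dimers as Jun does, was highest in normal salt library 22 at 136 CPM and in high salt library 21 at 124 CPM, where Jun was at 115 and 89.9 CPM. Its correlation was 0.44 with Jun and 0.45 with Dusp1, and negative with Fos and with Fosb (-0.54). In library 10, where Fos, Fosb and Atf3 peaked, Junb was at 62.8 CPM, one of its 3 lowest values. Without library 10 the median for Junb was 0.47, against 0.44 over all pairs of members, so its distance rested largely on that library. The median for Junb was 0.58 on high salt alone and -0.009 on normal salt alone. Fosb correlated positively with 6 of 8 members over all libraries and with 0 of 8 without library 10. Egr1 peaked in high salt library 21 at 139 CPM, a library in which Fos was at 4.98 CPM and Jun at 89.9 CPM.

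**Figure D4:**
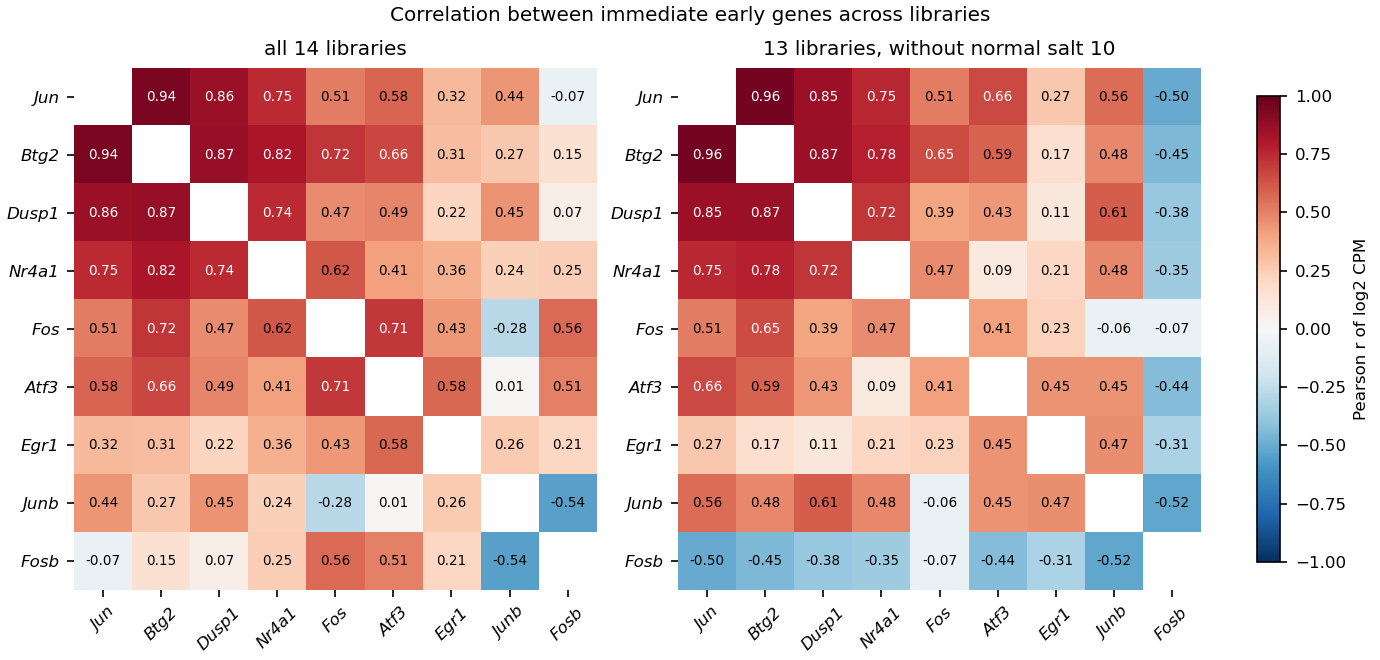
Pearson correlation of log2 CPM for each pair of the 9 genes over all 14 libraries (left) and over the 13 libraries other than normal salt library 10 (right), coloured from -1 to 1. The block of Jun, Btg2, Dusp1 and Nr4a1 keeps correlations above 0.7 in both, while the pairs with Fosb turn negative on the right.

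The diets were compared to ask whether immediate early transcripts differ in glomeruli of rats on high salt. No member passed the test: by edgeR's quasi-likelihood test 0 of 9 were called at an adjusted p below 0.05, against 0% of all 11158 tested genes, and the adjusted p of each was 0.9997. DESeq2, limma voom with library quality weights and limma-trend also called 0 of 9, and 0 of all genes they tested. Limma voom below always means this weighted form, in which libraries do not count equally. At an unadjusted p below 0.05 edgeR listed 1 member, Nr4a1, where 1.81% of all genes were listed. The log2 fold change of high over normal salt was negative for 8 of 9 members and for 50.5% of all tested genes. Its median was -0.17 over the members and -0.002 over all genes. In bulk glomeruli, fewer cells of a type and less RNA per cell cannot be told apart.

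Nr4a1 had the lowest fold change of the set. On high salt it ranged from 9.29 to 53.8 CPM with a median of 19.0, and on normal salt from 7.45 to 176 CPM with a median of 28.1. The groups overlapped: normal salt libraries 10, 16 and 18, at 122, 176 and 58.7 CPM, exceeded every high salt library, library 24 on normal salt was below every one, and the other 3 lay inside the high salt range. On the log2 scale the diets differed by -1.28 ± 0.58 (SE, edgeR; unadjusted p = 0.0432, adjusted p = 0.9997, 95% interval -2.51 to -0.04), and 5 of 7 high salt libraries lay below the normal salt median. Over single libraries left out, the difference by edgeR stayed negative, from -1.57 (without high salt library 15, unadjusted p = 0.0192) to -0.73. Without library 10 it was -1.02 (unadjusted p = 0.104), without library 16 -0.73 (unadjusted p = 0.185) and without both -0.04. Limma voom with quality weights gave -0.65 (unadjusted p = 0.267) and limma-trend -0.71 (unadjusted p = 0.244) over all libraries. Libraries 10 and 16 were left out together because they were the highest for Nr4a1, which moves the value up by construction. In the authors' deposited table the fold of the means of Nr4a1 was -1.27 on the log2 scale, rank 63 from the lowest of 12934 genes.

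Both Fos family genes had low counts. Fos ranged from 4.09 to 7.71 CPM on high salt (median 5.07) and from 3.69 to 15.4 CPM on normal salt (median 7.14). Library 10 and library 14, at 15.4 and 9.93 CPM, and library 16, at 8.4 CPM, were above all high salt libraries, and library 22 was below all of them. Its fold change on the log2 scale was -0.44 ± 0.28 (SE) by edgeR, with an unadjusted p of 0.134, and -0.17 without library 10. Fosb ranged from 0.366 to 1.94 CPM on high salt (median 1.21) and from 0.764 to 8.95 CPM on normal salt (median 0.95). Its normal salt mean exceeded the high salt mean while its median was lower. Its fold change on the log2 scale was -0.94 ± 0.58 (SE) by edgeR, with an unadjusted p of 0.122, and turned to 0.18 without library 10. DESeq2 replaced the 140 counts of that library by 16 and gave 0.17.

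Atf3 was at 8.61 to 41.8 CPM on normal salt (median 12.5) and at 9.51 to 22.0 CPM on high salt (median 11.9). A log2 difference of -0.38 ± 0.31 (SE), with an unadjusted p of 0.242 by edgeR, became 0.01 without library 10, the one at 41.8 CPM. Egr1 ranged from 37.9 to 139 CPM on high salt (median 59.0) and from 37.2 to 109 CPM on normal salt (median 65.7), a log2 fold change of -0.17 ± 0.27 (SE). The groups overlapped for both genes. On high salt, Egr1 was high in library 21 alone, with the others at 37.9 to 59.4 CPM, and 6 of 7 libraries lay below the normal salt median. Over single libraries left out, its log2 fold change by edgeR ran from -0.46 to -0.05. Limma voom gave -0.40 for Egr1 (unadjusted p = 0.0994).

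Jun, Junb, Dusp1 and Btg2 had the fold changes nearest to 0 of the set. Jun had medians of 107 CPM on high salt (83.7 to 201) and 128 CPM on normal salt (70.8 to 183), a log2 fold change of -0.06 ± 0.22 (SE). Junb was at 91.2 CPM (58.8 to 124) and 87.4 CPM (59.9 to 136), the one positive value of the set at 0.13 ± 0.20 (SE). Dusp1 was at 133 CPM (82.4 to 229) and 131 CPM (74.6 to 273), a log2 fold change of -0.06 ± 0.28 (SE). Btg2 was at 39.0 CPM (28.1 to 73.7) and 45.5 CPM (22.7 to 72.1), with -0.10 ± 0.27 (SE). For 5 of 9 members, Jun, Junb, Egr1, Dusp1 and Btg2, the 95% interval held neither a 2-fold rise nor a 2-fold fall, a share of 55.6% against 87.1% of all tested genes. For Fos, Fosb, Atf3 and Nr4a1 it reached beyond a 2-fold fall, and without library 10 it did so only for Nr4a1. Without library 10, the sign was positive for 5 of 9 members instead of 1.

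**Figure D5:**
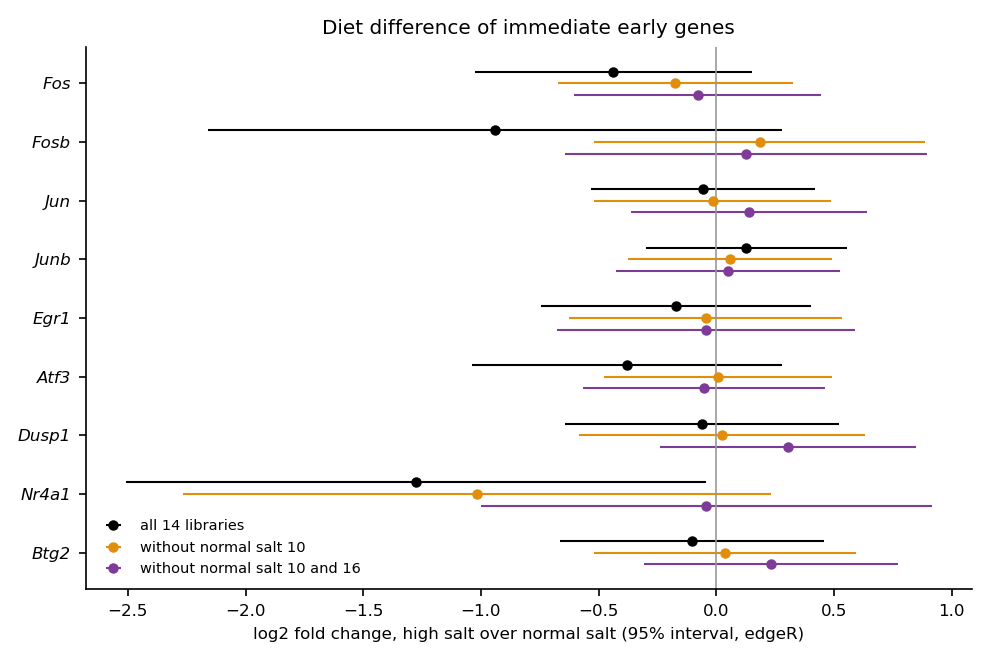
Log2 fold change of high over normal salt for each gene with its 95% interval (edgeR), over all 14 libraries (black), without normal salt library 10 (orange) and without normal salt libraries 10 and 16 (purple). The value of Nr4a1 moves from -1.28 to -1.02 and -0.04, and that of Fosb changes sign without library 10.

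Many glomerular genes followed the sample number, so the members were tested for a linear trend with diet in the model. None passed: edgeR called 0 of 9 members, where it called 12.7% of all tested genes (1418 of 11158), 6.97% with higher and 5.74% with lower values at high numbers. At an unadjusted p below 0.05 it listed 3 of 9 members (33.3%) against 32% of all genes, a share near the background. DESeq2, limma voom and limma-trend called 0 of 9 as well. Of all genes they called 2167 of 12934, 1090 of 11158 and 1473 of 11158. The slope was negative for 7 of 9 members and for 49.7% of all genes. Between numbers 9 and 24, the fitted line of Fos changed by -0.97 on the log2 scale (slope -0.065 ± 0.024 per number, SE; edgeR, unadjusted p = 0.017, adjusted p = 0.0833), short of the threshold.

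The fitted change over the same span was -1.07 for Atf3 (edgeR, unadjusted p = 0.0181, adjusted p = 0.086) and -0.87 for Btg2 (unadjusted p = 0.0399, adjusted p = 0.137). It was -1.38 for Nr4a1 and -1.36 for Fosb, with wider errors (adjusted p = 0.411 and 0.235), -0.55 for Dusp1 and -0.51 for Jun. Junb and Egr1 had positive values of 0.37 and 0.07. Single libraries decided the calls that came near. Fos was called without high salt library 23 (edgeR, adjusted p = 0.027), where 2118 of 11270 genes were called. Atf3 was called without normal salt library 12 (edgeR, adjusted p = 0.0458), where 762 of 11234 genes were called. Without library 10, which carries one of the lowest numbers, the slope of Fos was -0.041 (adjusted p = 0.309), that of Atf3 -0.031 and that of Fosb 0.020.

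The slope of Fos was -0.116 per number on normal salt alone and -0.019 on high salt alone. For Fosb these were -0.185 and 0.023. The difference between the diets in slope, high minus normal salt, was 0.098 ± 0.043 for Fos and 0.21 ± 0.090 for Fosb (SE; edgeR interaction term, unadjusted p = 0.0379 and 0.036, adjusted p = 0.998 for both). Interaction terms passed for 0 of 9 members and 0% of all genes, with 2 of 9 members and 1.91% of all genes below an unadjusted p of 0.05. Without library 10 the terms were 0.065 and 0.0099. Within numbers 9 to 16 (4 libraries per diet) the log2 fold change of Fos between the diets was -0.72 (edgeR, unadjusted p = 0.0495, adjusted p = 0.957) and that of Nr4a1 -1.56 (unadjusted p = 0.0495). Within numbers 17 to 24 (3 per diet) these were 0.10 and -0.49 (unadjusted p = 0.764 and 0.414).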

How the data were processed

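TRIzol RNA was turned into Lexogen QuantSeq FWD libraries, which read 3' tags, and run on an Illumina NextSeq instrument, per the labels' protocols. The authors deposited raw counts per rat Ensembl gene ID in 14 libraries. They also deposited a normalized signal, in which every count of a library is divided by a single factor, with the mean of each diet, a signed fold and its log2. DESeq2 1.18.1 and R 3.4.3 are named in the submitters' processing notes. These notes name the mouse build GRCm38 although the IDs are from rat. The sources used here do not name the aligner, counter or annotation.

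The members and lists were chosen with earlier results of these data known. Raw counts were tested with the robust quasi-likelihood F-test of edgeR 4.0.16 (R 4.3.3) after filterByExpr and TMM scaling, with Benjamini-Hochberg adjustment over 11158 genes. Diet was the only term in the diet fit, and diet was kept in the trend fit. Standard errors and intervals came from the F statistic. Log2 CPM had a prior count of 2. Correlations had 100000 permutations, or all 5040 orders within a diet, and were adjusted over 11157 genes. Planned lists of other immediate early, upstream and marker genes were not analysed here, since no table used here pairs IDs with symbols. The rule for named genes was the 9 members, plus the 2 other genes with the highest and the 2 with the lowest correlation with Fos. The comparison with Jun, the interaction without single libraries and the omission of libraries 10 and 16 together were added after the data were seen. Alternatives were RLE and upper quartile factors, other filters, DESeq2 1.42.0, limma 3.58.1, blocks of consecutive numbers, and leaving out each library. In limma, voom was run with library quality weights. The fits and correlations were tested on simulated data.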

Additional observations from a re-analysis of the deposited data

Results flagged for a closer look

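Among 18 groups of 7 libraries (9 genes on 2 diets), 4 held a library far from the other 6. Chance alone gives such a library in about 1 of 20 groups of normally distributed values. On log2 CPM, a scale added after the data were seen, 2 of the 4 remained, Fosb in library 10 and Egr1 in library 21. In normal salt library 10, Fosb stood at 8.95 CPM (140 counts) and the remaining 6 libraries of that diet at 0.764 to 1.14 CPM. In the same library Atf3 stood at 41.8 CPM, against 8.61 to 22.1 CPM in the others. Both flags come from 1 library and are not independent. In high salt library 13, Btg2 stood at 73.7 CPM, against 28.1 to 47.1 CPM in the other high salt libraries. In high salt library 21, Egr1 stood at 139 CPM (2757 counts), against 37.9 to 59.4 CPM in the others. Library 21 also had the lowest share of counts in the 10 most abundant genes, 30.8%, and counts for the fewest genes, 12499. The part of this in the Egr1 value was not tested.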

How the results depend on the processing

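The count of members called for diet was 0 under every alternative run, including each library left out and blocks of consecutive sample numbers as the replicate block, which gave -0.75 for Nr4a1 and -0.43 for Fosb. Fosb fell below the stricter filter. The diets share no sample number, so no paired analysis on numbers from the labels could be made. Signs of the uncalled log2 fold changes did change. Within numbers 17 to 24 they were 0.10 for Fos, 0.21 for Fosb, -0.11 for Junb, 0.23 for Egr1 and 0.048 for Btg2. Limma voom gave 0.024 for Jun, 0.19 for Dusp1 and 0.028 for Btg2, and DESeq2 gave 0.17 for Fosb. Without libraries 10 and 16 together, Fosb was at 0.13, Jun at 0.14, Dusp1 at 0.31 and Btg2 at 0.23. Over single libraries left out, the value ran from -1.15 to 0.18 for Fosb, -0.23 to 0.059 for Jun, -0.54 to 0.0065 for Atf3, -0.20 to 0.14 for Dusp1 and -0.28 to 0.037 for Btg2.

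The trend called 0 to 1 members over single libraries left out, and 451 to 2118 of all genes (2167 with DESeq2 and 0 within either diet, which has fewer libraries). The lowest counts of all genes, 451 to 926, came without high salt library 9 or 21, or normal salt library 10, 12 or 22. The slope ran from -0.15 to 0.020 for Fosb and from -0.037 to 0.028 for Egr1. It was 0.023 for Fosb on high salt alone, and for Egr1 -0.0052 with limma voom, -0.0018 with limma-trend and -0.034 on normal salt alone.

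Correlation with Fos passed for 0 members throughout, but for 74 of all genes with RLE factors and for 509 without library 12, 268 without 14, 159 without 15, 74 without 24, 8 without 9, 5 without 16 and 3 without 17. Within either diet a pass needs many genes at the smallest exact p, so the 0 there decides nothing. Correlations with Fos reversed on high salt alone for Fosb (-0.0079), Egr1 (-0.20) and Nr4a1 (-0.26). Without the 2 libraries farthest from the median they were -0.12 for Fosb and -0.015 for Egr1, and over single omissions -0.067 to 0.64 for Fosb. Correlations with Jun were 0.19 for Fosb on normal salt alone, 0.14 for Fosb without the 2 farthest libraries, -0.50 to 0.18 for Fosb over single omissions, and -0.045 for Egr1 on high salt alone. On residuals after diet and number, 1 member (Btg2) and 3 of all genes passed for Jun, against 0 otherwise. For Btg2 this turned on how many genes shared the smallest permutation p, so it is no sign of a closer relation. The number of members more variable than genes of like abundance was 8 to 9 over single omissions, the exception being Fosb without library 10. The ratio of Dusp1 to Fosb means ran from 85.2 to 142. The causes of these changes were not tested. Counting error limits Fosb, with 6 to 140 counts per library.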

Other observations

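The genes most correlated with Fos were no members of the set. ENSRNOG00000017832 (40.1 to 77.5 CPM) had r = 0.91 and ENSRNOG00000053659 (22.8 to 51.5 CPM) r = 0.90 over 14 libraries. Each had a permutation p of 1e-05, the smallest possible, and an adjusted permutation p of 0.0515 over 11157 genes. The most negative were ENSRNOG00000004755 with r = -0.92 and ENSRNOG00000019325 with r = -0.91, also at an adjusted permutation p of 0.0515. At p-values this low the adjusted value is set by how many genes share them, so passing or not decides nothing. Of the members, Btg2 ranked 281 and Atf3 318 among the genes most like Fos. Seen from Atf3, Fos ranked 26. Seen from Nr4a1, Btg2 ranked 68 and Jun 179, although Nr4a1 itself ranked 14 for Jun and 10 for Btg2.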
